A study of Mus musculus with 6 samples.

Results

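To examine whether the DNA on both sides of the disrupted Tet1 gene carried a 5-hydroxymethylcytosine (5hmC) difference of its own, the regions of chromosome 10 that flank Tet1 were compared between knockout (KO) mice and wild-type (WT) mice. The flank was defined by position only. It held every region of the count table (build mm9) with its midpoint from 57000000 to 67000000 on chromosome 10, without a central interval that holds Tet1 itself. The 12 regions of that interval run from 62306419 to 62391372, but it was set wider than these regions. Distances were counted from the edges of the interval to the midpoint of a region. The edges lie 37.4 kb from the midpoint of the closest member on the lower side, chr10:62202231-62202974, and 10.4 kb from that of the closest on the higher side, chr10:62410279-62410577. The flank held 1000 of 192196 regions, with 711 on the lower-coordinate side and 289 on the higher-coordinate side. The rest of chromosome 10 held 8896 regions and served as the comparison. Per the labels, the material was brain of Tet1 KO and Tet1 WT mice, with 2 5hmC libraries of each genotype, called sample 1 and sample 2. The study itself describes a constitutive KO and astrocytes cultured from the cortex and hippocampus of newborn pups. The study checked such cultures with astrocyte and neuronal markers, and 5hmC counts hold no such check. The strain, the deleted part of Tet1 and the number of animals behind a library are not given in the sources used here. The labels do not say whether samples 1 and 2 came from separate animals, so the p-values measure the spread between these libraries. The KO libraries were unlike in their counts on chromosome Y, with 1765 in sample 1 and 46 in sample 2. The spread may be technical in part, and its source was not tested.

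5hmC is made from 5-methylcytosine by the Tet dioxygenases, and it is abundant in brain DNA, where it lies in gene bodies and at enhancers of active genes. A mouse made by gene targeting can keep, next to the altered gene, a stretch of chromosome from the embryonic stem cells in which the change was made. Such linked DNA is inherited with the allele, so a difference beside the gene need not come from loss of the enzyme. In the RefSeq gene order of GRCm38.p6, Tet1 lies between Ccar1, a regulator of cell cycle and apoptosis, and Slc25a16, a mitochondrial carrier. Beyond Ccar1 follow Stox1 and the RNA helicases Ddx50 and Ddx21, and further out Hk1, which encodes hexokinase. Beyond Slc25a16 follow Dna2, a nuclease and helicase of DNA replication, the deacetylase Sirt1, and then the very long cell adhesion gene Ctnna3, within which lies Lrrtm3, a synaptic adhesion gene. These names give the order of genes only. That annotation is of another build, so no region was assigned to a gene, exon, intron or promoter, and no sequence is shown.

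The total counts ranged from 16819455 to 19288900 per library, and the flank itself held 81441 and 67391 counts in KO samples 1 and 2 and 74054 and 71134 in WT samples 1 and 2. KO sample 2 stood apart in its 46 counts on chromosome Y, against 1765 to 5353 in the other libraries. The 25 regions of highest mean count set the sample numbers apart. They took 36.5% of counts in KO sample 2 and 34.1% in WT sample 2, but 11.5% and 17.8% in the sample 1 libraries, and 0 of them lay in the flank. Within the Tet1 interval, the summed level was 43.6 and 46.0 CPM in KO and 43.7 and 43.3 CPM in WT. Here CPM is the count per 1000000 counts of the TMM-scaled library (TMM, trimmed mean of M-values, sets the library sizes). Values are given for sample 1 and then sample 2. They are relative to the rest of the library, so an even change of 5hmC over the genome would not show in them. The study itself reports a lower global 5hmC level in KO astrocytes by dot blot. None of the 12 regions was at 0 in a KO library, and since the deleted part is not known here they do not check the labels. The region of the interval with the lowest p lay at chr10:62328456-62329809 and had 9.61 and 10.1 CPM in KO against 5.82 and 4.07 CPM in WT. It did not pass, with an unadjusted p of 0.0101 and an adjusted p of 1 by edgeR's quasi-likelihood test. Other regions of the interval went the other way, with 2.25 and 1.63 CPM in KO against 4.76 and 2.85 CPM in WT at chr10:62390755-62391372, and 1.92 and 2.02 against 3.15 and 3.84 CPM at chr10:62356299-62356687.

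The flank held more 5hmC regions than the average of the chromosome, and they were unevenly spread. It held 102 regions per Mb over its 9.84 Mb, against 74.1 per Mb over the rest of the chromosome. Richer stretches were found elsewhere, since the 14 windows of 10 Mb on chromosome 10 held 154 to 1222 regions and 2 of them held more than the flank. Region widths had a median of 443.5 bp in the flank and 435 bp elsewhere on chromosome 10. The median level of a region in WT was 2.64 CPM in the flank, with quartiles of 1.55 and 4.79, and 2.55 CPM in the rest of the chromosome, with quartiles of 1.51 and 4.54. A member of the flank was thus of the same width and strength as other regions of the chromosome, and the members lay closer together, with a median gap of 3311 bp against 4536.5 bp.

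Next, counts were summed over windows of 1 Mb to follow the level of 5hmC across the flank. The window of highest signal, from 59 to 60 Mb, held 217 regions and had 907 and 1109.8 CPM in KO, against 938 and 1020.2 CPM in WT. From there the signal fell toward Tet1. In the window from 61 to 62 Mb it was 467.4 and 664.3 CPM in KO and 528.9 and 582.7 CPM in WT. The window from 62 to 63 Mb, which holds Tet1 and was counted without it, had 220.6 and 259.5 CPM in KO and 226.3 and 236.5 CPM in WT. In both windows the WT values lay between the KO values, so the genotypes overlapped.

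On the higher-coordinate side, the window from 63 to 64 Mb held 65 regions and had 208.6 and 147.9 CPM in KO and 181.7 and 175.8 CPM in WT. A stretch with little 5hmC followed. The window from 64 to 65 Mb held 8 regions, with 90 and 8 counts in KO and 76 and 59 in WT. KO sample 2 was the low library there. From 65 to 66 Mb, 21 regions had 32 and 29.7 CPM in KO and 41.8 and 37 CPM in WT, with both KO libraries below both WT libraries. The signal returned from 66 to 67 Mb, where 150 regions had 571.6 and 610.3 CPM in KO and 593.6 and 626.6 CPM in WT. At the outer lower edge, from 57 to 58 Mb, KO had 168.8 and 121.6 CPM and WT 174.6 and 188.3 CPM, again without overlap. The window from 58 to 59 Mb went the other way, with 658.1 and 692.2 CPM in KO above 615.9 and 626.2 CPM in WT. How many windows over the genome lacked overlap was not counted.

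**Figure D1:**
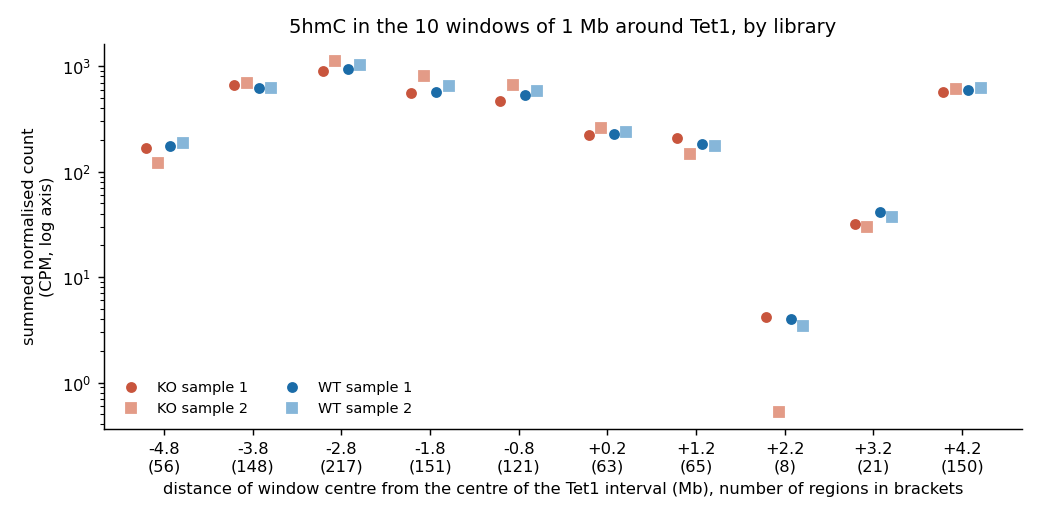
Summed normalised count (CPM, log axis) of each 5hmC library in the 10 windows of 1 Mb of the flank, placed by distance from the centre of the Tet1 interval, with the number of regions in brackets. The 4 libraries follow the same profile, from about 1000 CPM in the richest window to a window of 8 regions where KO sample 2 has 0.528 CPM and the other libraries 3.44 to 4.19 CPM.

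Summed over the whole flank, the relative levels of KO and WT did not differ beyond the spread between libraries. Of chromosome 10 counts outside the Tet1 interval, KO sample 1 had 10.1% in the flank (95% Wilson interval 10.04 to 10.17) and KO sample 2 had 11.5% (11.38 to 11.54). WT sample 1 had 10.3% (10.27 to 10.41) and WT sample 2 had 11.1% (10.98 to 11.13). These intervals cover counting error only. The mean was 10.8% ± 0.963 in KO and 10.7% ± 0.506 in WT (SD, n = 2 each), and both WT libraries lay between the KO libraries. An exact two-sided permutation test gave p = 1, and with 2 libraries against 2 it cannot give less than 0.333. In an edgeR fit over 282 windows of 10 Mb across the genome, the flank had a log2 fold change of 0.00 ± 0.07 (SE). Its 95% interval ran from -0.20 to 0.20 and its adjusted p was 0.999, beside 0 windows called over the genome (0%) and 1 (0.355%) at an unadjusted p under 0.05. The other 13 windows of chromosome 10 ranged from -0.18 to 0.07, and 246 of 263 autosomal windows had a log2 fold change further from 0 than the flank. This interval depended on the libraries and the scaling. It ran from -0.42 to 0.35 without WT sample 1, from -0.30 to 0.39 without WT sample 2 and from -0.64 to 0.69 with scaling by total counts. Without KO sample 1 it ran from -0.06 to 0.21, and without KO sample 2 from -0.19 to 0.06.

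**Figure D2:**
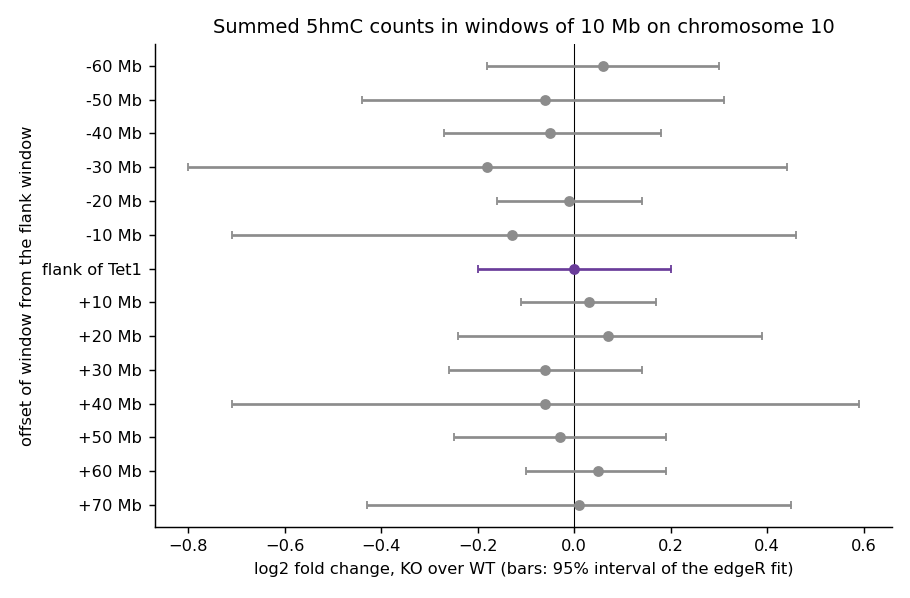
Log2 fold change of KO over WT (points) with the 95% interval of the edgeR fit (bars) for summed counts in the 14 windows of 10 Mb of chromosome 10, ordered by their offset from the flank window. The flank lies at 0.00, between -0.20 and 0.20, and every interval on the chromosome includes 0.

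Toward Tet1 the summed signal did not part by genotype. Within 1 Mb of the Tet1 interval, 179 regions took 1.66% and 1.90% of chromosome 10 counts in KO and 1.73% and 1.86% in WT, with p = 1 by the exact permutation test. The exact permutation test also gave p = 1 on the lower-coordinate side, with 7.50% and 8.96% in KO and 7.69% and 8.34% in WT. On the higher-coordinate side the groups did not overlap. The shares were 2.60% and 2.51% in KO, both below the 2.64% and 2.71% of WT. The difference of the mean log2 shares was -0.07, and p = 0.333 by the exact permutation test, the smallest it can give.

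Each 1 Mb window was also tested by itself. By edgeR's quasi-likelihood test, 0 of the 10 windows of the flank had an adjusted p under 0.05, and for 0 of them the unadjusted p was under 0.05. Over the genome 0 of 2556 windows passed (0% called), and the unadjusted p was under 0.05 in 16 (0.626%). By DESeq2, 0 flank windows and 0.0782% of all windows passed. Log2 fold changes in the flank ran from -0.62 to 0.16, within the range of -0.79 to 0.29 of the 117 windows elsewhere on chromosome 10. The lowest, -0.62 ± 0.86 (SE), belonged to the window of 8 regions from 64 to 65 Mb, with an interval from -2.78 to 1.55. The next were -0.35 ± 0.26 from 65 to 66 Mb and -0.32 ± 0.20 from 57 to 58 Mb. The window that holds Tet1 had 0.05 ± 0.13, with an interval from -0.28 to 0.38. The window beside it, from 61 to 62 Mb, had 0.03 ± 0.19, with an interval from -0.44 to 0.50.

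The 1 Mb calls depended on KO sample 2. Without KO sample 1, which leaves KO sample 2 as the only KO library and takes its spread from the WT pair, 4 of the 10 windows passed by edgeR, beside 30.4% of windows over the genome. These were the windows from 57 to 58 Mb (-0.58) and from 64 to 65 Mb (-2.80), which were lower, and those from 60 to 61 Mb (0.40) and from 61 to 62 Mb (0.25), which were higher. Without KO sample 2, 0 of the 10 windows passed, with values of -0.10, 0.17, -0.14 and -0.25 in the same windows, and 0.702% of windows passed over the genome. Without WT sample 1 or WT sample 2, 0 of the 10 passed, beside 0.117% and 0.039% over the genome. In the last 3 of these windows the KO libraries thus had opposite signs.

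The KO to WT ratio was then followed by distance in each sample number, over the regions with enough counts for a test. Of the 1000 members, 929 passed the low-count filter, and the other 71 had at most 54 counts in a library. The median log2 ratio of KO to WT was -0.04 in sample number 1 (quartiles -0.41 and 0.33) and 0.00 in sample number 2 (quartiles -0.55 and 0.49). Over 8160 regions of the rest of chromosome 10 it was 0.02 and -0.07. The flank less the rest of the chromosome was therefore -0.06 in sample number 1 and 0.07 in sample number 2, with opposite signs, and no test was made of these medians because regions of a library are not replicates. Within a genotype, the median log2 ratio of sample 2 to sample 1 in the flank was 0.12 in KO and 0.06 in WT, as large as the ratios between genotypes. Among the pairs of libraries compared here, WT sample 2 and WT sample 1 were closest, with quartiles of -0.30 and 0.39. Farthest apart among these pairs were KO sample 2 and KO sample 1, with quartiles of -0.54 and 0.66.

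With both sides of Tet1 pooled, the medians of the 2 sample numbers lay furthest apart within 0.5 Mb, but neither side alone showed this clearly. On the higher side they lay further apart from 0.5 to 1 Mb (0.32 and -0.34) than within 0.5 Mb (-0.22 and 0.11). On the lower side the gap was about the same within 0.5 Mb (-0.09 and 0.21) and from 1 to 2 Mb (-0.13 and 0.19). No trend with nearness to the gene was therefore read from the pooled values. In the 79 tested members within 0.5 Mb of the Tet1 interval the median log2 ratio was -0.16 in sample number 1 and 0.18 in sample number 2. From 0.5 to 1 Mb, 84 members had 0.12 and -0.12. From 1 to 2 Mb, 179 members had -0.09 and 0.10. From 2 to 3 Mb, 178 members had -0.09 and 0.04, and beyond 3 Mb, 409 members had 0.01 and -0.04. In each of the 5 distance ranges the medians of the sample numbers had opposite signs, and none departed from 0 by more than 0.18. The width of the distribution far exceeded these medians, since within 0.5 Mb the quartiles were -0.60 and 0.19 in sample number 1 and -0.24 and 0.60 in sample number 2. Spearman's rho of the log2 ratio with distance was 0.0236 in sample number 1 and -0.0989 in sample number 2 across the 929 members. The sides had opposite signs. On the lower side rho was 0.0996 in sample number 1 and -0.123 in sample number 2. On the higher side it was -0.0644 and 0.0215. Members share their libraries and are not independent.

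The ratios were also read on each side of Tet1. Within 0.5 Mb, the lower side (44 members) had medians of -0.09 and 0.21 and the higher side (35 members) had -0.22 and 0.11. From 0.5 to 1 Mb the higher side (34 members) had 0.32 and -0.34. From 1 to 2 Mb on the higher side, 26 members had medians of -0.03 in sample number 1 and -0.68 in sample number 2. From 2 to 3 Mb on the higher side the 4 members had -0.55 and -1.02. The ratios of sample number 2 on this side were thus low from 0.5 to 3 Mb, and the values returned to -0.11 and -0.07 in the 157 members beyond 3 Mb. On the lower side the medians were -0.04 and 0.10 from 0.5 to 1 Mb and -0.13 and 0.19 from 1 to 2 Mb. They were -0.09 and 0.07 from 2 to 3 Mb and 0.05 and -0.02 beyond.

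**Figure D3:**
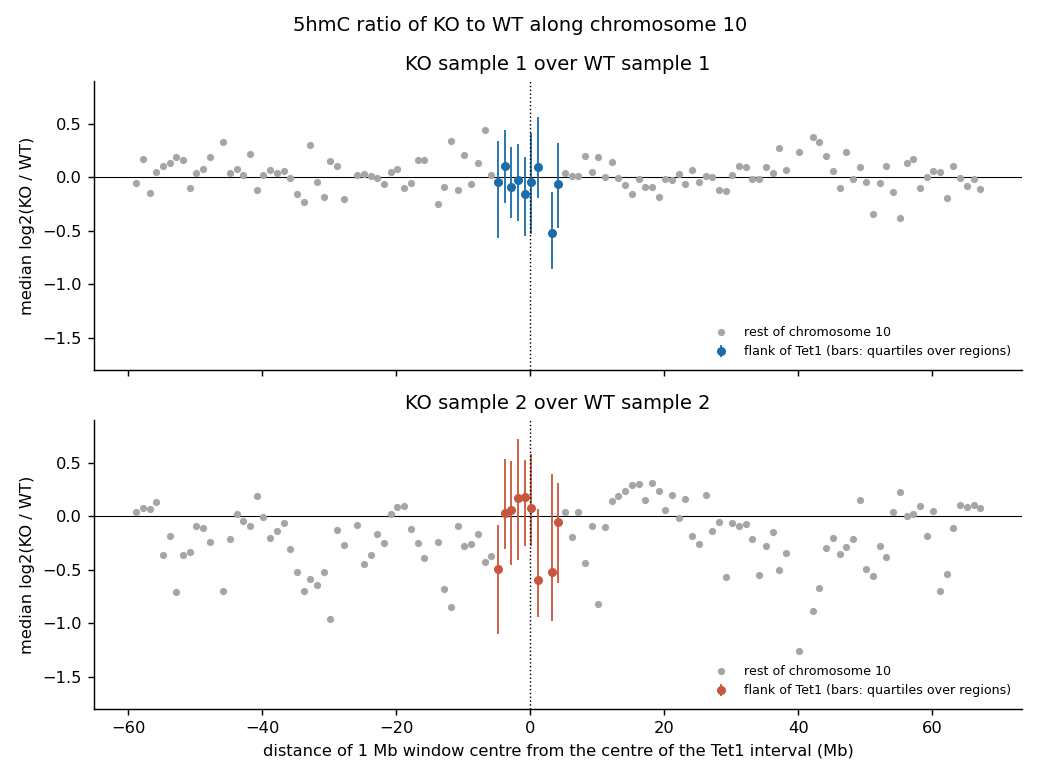
Median log2 ratio of KO to WT in 1 Mb windows with at least 5 tested regions along chromosome 10, by distance of the window from the centre of the Tet1 interval, for each sample number; bars are quartiles over regions and grey points are the rest of the chromosome. Except for 1 window in sample number 1, of 16 tested regions at -0.52, the flank windows lie within the range of the grey points, -0.38 to 0.44 in sample number 1 and -1.26 to 0.31 in sample number 2.

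The ratio in sample number 2 went with the number of regions in a window. In the 9 flank windows with at least 5 tested regions, Spearman's rho between the number of tested regions and the median ratio was 0.594 in sample number 2 and 0.176 in sample number 1. In the other 112 such windows of chromosome 10 it was 0.517 and -0.0309. Windows share their libraries, so these are descriptions. The flank windows with at least 60 tested regions had medians between -0.05 and 0.18 in sample number 2. Those with fewer ran from -0.60 to 0.08, with values of -0.49 from 57 to 58 Mb, 0.08 from 62 to 63 Mb, -0.60 from 63 to 64 Mb and -0.52 from 65 to 66 Mb. In the rest of chromosome 10, windows under 60 tested regions had a median of -0.34 and the others -0.06 in sample number 2, against 0.04 and 0.02 in sample number 1. The part of this relation in the low ratios on the higher side was not tested. The higher side had 35 tested members within 0.5 Mb and 34 from 0.5 to 1 Mb. The windows from 62 to 63 Mb and from 63 to 64 Mb held 58 and 53 tested regions.

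The window from 65 to 66 Mb was low in both sample numbers. Its 16 tested members had a median log2 ratio of -0.52 in each, and in sample number 1 this lay below the -0.38 that was lowest among the other chromosome 10 windows with at least 5 tested regions. The summed counts of the window did not pass the test, as given above.

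**Figure D4:**
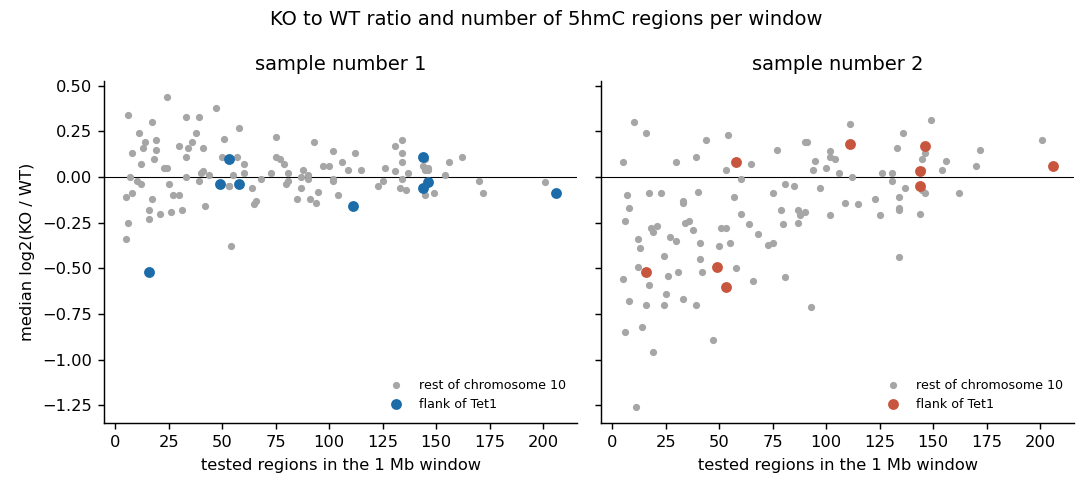
Median log2 ratio of KO to WT against the number of tested regions in each 1 Mb window of chromosome 10 with at least 5 tested regions, for sample number 1 and sample number 2; coloured points are the flank and grey points the rest. In sample number 2 the 3 flank windows near -0.5 hold under 60 tested regions, like most low grey points.

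To identify single regions with altered 5hmC, each region of the table was tested between genotypes. By edgeR's quasi-likelihood test with Benjamini-Hochberg adjustment over 176957 regions, 0 of the 929 tested members passed at adjusted p under 0.05, as did 0 over the genome (0% called). By DESeq2, 0 members passed, and 0.00339% passed over the genome. At an unadjusted p under 0.05 there were 23 members, or 2.48%, against 2.81% of all tested regions. Of these, 10 were higher in KO, or 1.08% against 1.54% of all regions, and 13 were lower, or 1.40% against 1.27%. Both shares were near the background. Within 1 Mb of the Tet1 interval, 3 of 163 tested members had such a p, a smaller share than the 2.81% of all tested regions. All 3 were lower in KO, too few to give a direction.

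Both KO libraries lay above both WT libraries in 141 members, or 15.2%, against 15.3% of all tested regions. They lay below both in 148 members, or 15.9%, against 15.6%. A fitted fold above 2 was found in 26 members that were higher in KO, or 2.80% against 3.13% of all regions, and in 31 that were lower, or 3.34% against 3.32%. The median fitted log2 fold change was 0.01 over the tested members and 0.02 over all tested regions. No member was at 0 in both KO libraries with at least 10 counts in each WT library, and none showed the reverse. A count of 0 in at least 1 library was found in 41 of the 1000 members, with 21 and 29 in the KO libraries and 15 and 9 in the WT libraries. The share of such regions over the genome was not counted, so these numbers do not set the flank apart. For comparison, 3 counts, taken as the limit that a count of 0 allows, equal 0.141 to 0.195 CPM in these libraries.

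The sample numbers did not share their ratios member by member. Across the 929 tested members the log2 ratios of KO to WT in sample numbers 1 and 2 had a Pearson correlation of -0.0311 and a Spearman correlation of -0.0282. Across the rest of chromosome 10 the values were -0.0437 and -0.0527. Both ratios had the same sign in 48.4% of members, with 213 higher and 237 lower in KO in both, and in 47.5% of the rest of the chromosome. The ratio varied more in sample number 2, with an SD of 0.843 across members, than in sample number 1, with 0.591.

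**Figure D5:**
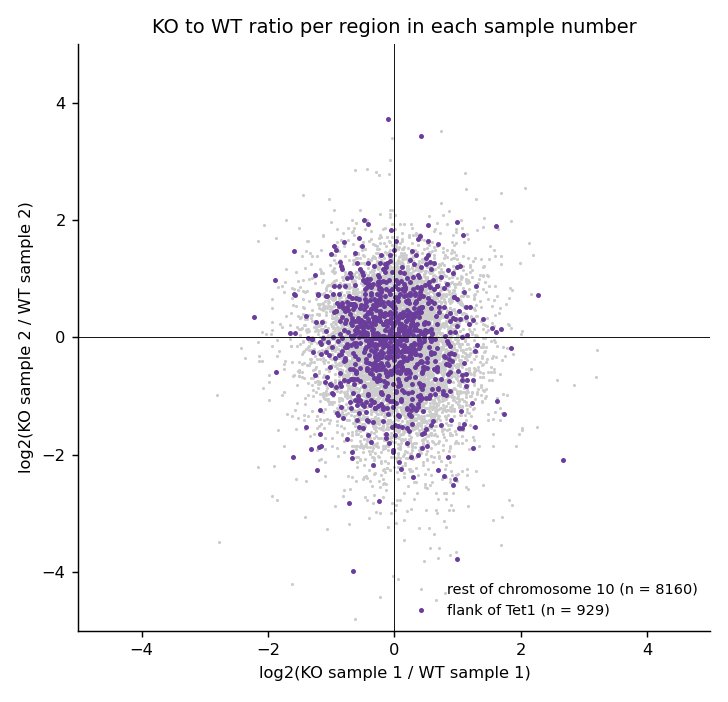
Log2 ratio of KO to WT in sample number 1 (x axis) and sample number 2 (y axis) for the 929 tested members (purple) and 8160 tested regions of the rest of chromosome 10 (grey). The members form a round cloud around 0 that lies over the grey one, wider along the axis of sample number 2.

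The members closest to Tet1 were examined in turn. On the lower side, chr10:62202231-62202974, at 37.4 kb, had 4.92 and 3.77 CPM in KO and 3.26 and 3.84 CPM in WT. Its neighbour chr10:62200475-62201028 had 3.05 and 1.11 CPM in KO and 3.53 and 2.27 CPM in WT, and chr10:62193543-62194041 had 2.44 and 4.36 against 3.63 and 3.61 CPM. The fourth, chr10:62186351-62186779, had 2.11 and 0.65 CPM in KO and 1.12 and 0.931 CPM in WT. In all 4 the genotypes overlapped, and the log2 fold changes ran from -0.46 to 0.44.

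On the higher side, chr10:62410279-62410577, at 10.4 kb the closest member of all, had 0.75 and 1.5 CPM in KO and 0.801 and 1.69 CPM in WT. The next, chr10:62416795-62417051, had 0.656 and 2.21 CPM in KO and 2.19 and 1.28 CPM in WT. These overlapped as well. The member chr10:62434497-62435163 had 2.25 and 3.77 against 4.86 and 3.49 CPM, and overlapped too. In chr10:62445148-62445461, at 45.3 kb, both KO libraries were lower, with 1.03 and 0.715 CPM against 1.18 and 1.28 CPM. The fit gave -0.48 ± 0.77 (SE) on the log2 scale and an adjusted p of 1 by edgeR, and the log2 fold changes of the 4 members on this side ran from -0.48 to -0.16. None of the 8 closest members passed, and their intervals reached from -2.12 to 2.10.

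The strongest members did not differ between genotypes beyond the spread of the libraries. The member of highest mean level, chr10:58892166-58894503, a region of 2338 bp, had 46.8 and 58.2 CPM in KO and 52.7 and 57.1 CPM in WT. Its log2 fold change was -0.07 ± 0.27 (SE), with a 95% interval from -0.64 to 0.51. The member chr10:61088562-61090934 had 30.3 and 46.4 CPM in KO and 37.5 and 36.2 CPM in WT, with 0.06 ± 0.29 (SE) on the log2 scale. The member chr10:60747796-60749456 had 28.3 and 31.1 CPM in KO and 27.2 and 32.7 CPM in WT, with -0.01 ± 0.27 (SE). In each of the 3 the KO and WT libraries overlapped.

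Among members with both KO libraries above both WT libraries, the lowest p belonged to chr10:59471989-59472930, a region of 942 bp that lies 2767.5 kb from the Tet1 interval on the lower side. It had 140 and 187 counts in KO and 39 and 55 in WT, or 6.56 and 12.2 CPM against 2.08 and 3.20 CPM. KO exceeded WT by 1.82 ± 0.41 (SE) on the log2 scale, and edgeR gave an unadjusted p of 0.000434 and an adjusted p of 1. KO was higher in both sample numbers, by 1.61 and 1.89 on the log2 scale. Its log2 fold change was 2.21 without KO sample 1 and 1.32 without KO sample 2. Without WT sample 1 it was 1.55, and without WT sample 2 it was 2.16. Such fits take their spread from the complete pair alone, so only their effect sizes are given. The member was picked by its low p in these same data, so these values are no separate check of it.

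The next 3 members in this direction did not pass, edgeR giving each an adjusted p of 1. The member chr10:60973420-60973974 had 4.45 and 8.58 CPM in KO and 3.05 and 2.68 CPM in WT, and chr10:61000969-61001226 had 0.610 and 2.34 against 0.427 and 0.116 CPM. The first of them had a log2 fold change of 1.18 ± 0.42 (SE). For the other, only 13 and 36 counts in KO and 8 and 2 counts in WT stood behind a value of 2.38 ± 0.98 (SE). Far out on the higher side, chr10:66586379-66586788 had 2.77 and 3.06 CPM in KO and 1.34 and 0.698 CPM in WT, with 1.5 ± 0.60 (SE) on the log2 scale.

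Among members with both KO libraries below both WT libraries, the lowest p belonged to chr10:57693779-57695436, near the outer edge of the flank. It had 8.30 and 6.24 CPM in KO and 11.2 and 16.7 CPM in WT, with -0.94 ± 0.32 (SE) on the log2 scale and an unadjusted p of 0.0104. The member chr10:61762499-61763642, at 476.9 kb from the Tet1 interval, was stronger, with 13.3 and 21.8 CPM in KO and 27.8 and 34.7 CPM in WT. Its log2 fold change was -0.84 ± 0.30 (SE). The member chr10:61642054-61642425 had 2.53 and 2.08 CPM in KO and 4.54 and 5.58 CPM in WT, with -1.13 ± 0.43 (SE). In the sparse stretch of the higher side, chr10:65594462-65595110 had 1.41 and 2.93 CPM in KO and 5.45 and 4.48 CPM in WT, with -1.21 ± 0.47 (SE). All 4 had an adjusted p of 1 by edgeR.

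The number of members called rested on which KO library was kept. Without KO sample 1, 67 of 938 tested members passed by edgeR, 45 higher and 22 lower, or 7.14% against 7.52% of all regions. Without KO sample 2, 10 of 940 passed, 3 higher and 7 lower, or 1.06% against 1.09% of all regions. In both cases the lone KO library was assumed to vary like the WT pair, and the share of members called was near that of the genome. Without either WT library, 0 members passed by edgeR, beside 0.00504% and 0.00393% of all regions, and 5 members (0.534%, against 0.686% of all regions) and 3 members (0.319%, against 0.575%) were at an unadjusted p under 0.05.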

How the data were processed

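5hmC-containing DNA was tagged, purified on an affinity support and sequenced, and the authors deposited raw read counts per region for 4 libraries on 1 shared region list. The submitters' processing notes name Bowtie2 2.2.6 and mm9. The region caller, counting program, duplicate removal and placement of reads with several matches are not given in the sources used here, and reads of repeated sequence may be misplaced. The 2 input libraries listed in the labels were not analysed here. Groups and sample numbers came from the sample titles.

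Low-count regions were dropped by filterByExpr (minimum count 10, minimum total 15), and TMM factors scaled the libraries. The quasi-likelihood test in edgeR 4.0.16 (R 4.3.3) set KO against WT over all regions and over summed windows of 1 and 10 Mb, with Benjamini-Hochberg adjustment over the whole table at a 0.05 threshold, leaving 2 residual degrees of freedom. CPM of windows use the TMM factors of the window fit. Windows of 10 Mb were laid so that the flank was 1 window. Log2 ratios per library used a prior count of 2, and matched KO and WT libraries of the same sample number, a number that the labels do not tie to a shared batch. Intervals are at 95%. Scripts were tested on simulated data.

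Regions were named by a rule. It took the 4 tested members closest to the Tet1 interval on each side, the 3 of highest mean and, as fewer than 4 passed in a direction, the 4 of lowest p in each direction without overlap of the groups. The members, windows and lists were chosen with earlier results of these data known. Alternatives were DESeq2 1.42.0, total-count scaling, other filters, window and flank sizes, a replicate block and leaving out each library. Plots were drawn with matplotlib 3.10.9.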

Additional observations from a re-analysis of the deposited data

How the results depend on the processing

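The count of 0 members and 0 windows of 1 Mb past adjusted p 0.05 by edgeR, beside 23 members and 0 windows at unadjusted p under 0.05, was also 0 with DESeq2, total-count scaling, both other filters, autosomes only and an adjusted p of 0.01. It was 0 for windows of 0.5 Mb and of 2 Mb. With 1 library left out, the count ranged from 0 to 67 for members and from 0 to 4 for windows. In the labels, same-numbered libraries share only a number. Their deviations correlated at 0.164 over all tested regions and 0.115 over members. The 25 regions of highest mean count took 36.5% and 34.1% of counts in KO and WT sample 2, against 11.5% and 17.8% in sample 1. Under a replicate block by sample number, 1 member passed, chr10:59471989-59472930, beside 0.0446% of regions over the genome, and 0 of the 10 windows passed. The block did not change the call of the whole flank, with a log2 fold change of 0.00. That value ranged from -0.07 to 0.08 with 1 library left out, so its sign was not stable, and was 0.04 within 2 Mb of Tet1. The median ratio of the flank less the rest of chromosome 10, -0.06 and 0.07 in sample numbers 1 and 2, was -0.08 and 0.15 within 2 Mb of Tet1, -0.12 and 0.14 against the mean of both WT libraries, 0.00 and 0.00 with 10 Mb on each side and -0.04 and 0.00 against all other autosomes. It moved furthest when the KO library was set against the WT library of the other number, chosen after seeing the data, which gave -0.18 in sample number 1 and 0.19 in sample number 2. Removing the trend with local region density, also chosen after seeing the data, gave -0.04 and 0.03. Of 188 values for the 19 named regions under alternatives, 12 in 8 regions changed sign. With 1 library left out, the log2 fold change ranged from -1.38 to 0.07 for chr10:62200475-62201028, from -0.57 to 0.27 for chr10:62193543-62194041, from -0.65 to 1.03 for chr10:62186351-62186779 and from -0.72 to 0.47 for chr10:62410279-62410577. It ranged from -1.40 to 0.35 for chr10:62416795-62417051, from -0.23 to 0.09 for chr10:58892166-58894503, from -0.28 to 0.34 for chr10:61088562-61090934 and from -0.13 to 0.12 for chr10:60747796-60749456, which was 0.01 with total-count scaling. The cause was not tested. The median standard error of a member was 0.50 on the log2 scale. The member at 1.82 ± 0.41 (SE) did not pass by edgeR after adjustment over all tested regions. A change of that size in a single member could thus go uncalled here.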
